A study of Homo sapiens with 12 samples.

Results

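The CHD family of ATP-dependent chromatin remodellers was followed in 501Mel cells, a human melanoma cell line, after silencing of its members CHD4 or CHD3. The 9 genes CHD1 to CHD9 were taken by name from the expression tables, and all 9 had reads, among 31911 genes with counts in the siCHD4 table and 33154 in the siCHD3 table. Cells were transfected with a control siRNA (siCtrl) or with siRNA pools against CHD4 (siCHD4) or CHD3 (siCHD3), grown in the same medium and harvested after 72 h for RNA-seq. The 12 libraries form 4 groups of 3, with siCtrl replicates 1 to 3 beside siCHD4 replicates 1 to 3 in a first table and siCtrl replicates 4 to 6 beside siCHD3 replicates 1 to 3 in a second. No siCtrl library was shared between the tables. All groups come from a single cell line, and siRNA lowers a transcript without removing the gene.

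CHD proteins carry paired chromodomains beside a Snf2-type helicase motor that slides or evicts nucleosomes. CHD1 and CHD2 form a first subfamily linked to transcribed genes. CHD3, CHD4 and CHD5 are alternative ATPase subunits of the NuRD complex, which joins nucleosome remodelling to histone deacetylation, and a NuRD complex holds one of these ATPases at a time. CHD6, CHD7, CHD8 and CHD9 form the last subfamily, whose best known members, CHD7 and CHD8, are mutated in CHARGE syndrome and in autism. The comparison asks whether the transcripts of the silenced genes fell and whether those of their paralogues moved with them.

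The paralogues differ enough in sequence for most reads to be told apart. The longest stretches of identical coding sequence between the NuRD ATPases are shown because a read lying wholly within one could come from either gene. They were read from the MANE Select transcripts on GRCh37. The shared run is in capitals and 15 bases on each side are in lower case. The CHD3 and CHD4 run covers 37 bases, in exon 19 of CHD3 (chr17:7804256-7804292, plus strand) and exon 20 of CHD4 (chr12:6701101-6701137, minus strand).
CHD3: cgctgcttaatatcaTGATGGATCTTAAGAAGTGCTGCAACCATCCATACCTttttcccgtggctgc
CHD4: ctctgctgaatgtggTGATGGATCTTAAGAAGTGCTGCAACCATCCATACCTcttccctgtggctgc

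CHD5 shared runs of 38 bases with each of the other NuRD ATPases. The run shared with CHD4 joins exons 6 and 7 of CHD4 and exons 5 and 6 of CHD5, so its ends lie apart on the genome (chr12:6710219-6710491 and chr1:6212596-6214756, both minus strand). It is shown because CHD5 reads were few and CHD4 reads many.
CHD4: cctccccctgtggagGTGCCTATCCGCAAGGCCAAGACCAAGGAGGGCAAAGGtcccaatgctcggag
CHD5: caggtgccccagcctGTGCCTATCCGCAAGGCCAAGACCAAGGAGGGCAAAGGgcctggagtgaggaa

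Of all 20-base words in the coding sequences, CHD3 and CHD4 shared 35, CHD3 and CHD5 56, and CHD4 and CHD5 54. Outside this subfamily, the longest runs were 41 bases between CHD7 and CHD8 and 26 bases between CHD1 and CHD2. The run of CHD1 and CHD2, in exon 14 of CHD1 (chr5:98229147-98229172, minus strand) and exon 16 of CHD2 (chr15:93499827-93499852, plus strand), is shown as the closest stretch of that pair.
CHD1: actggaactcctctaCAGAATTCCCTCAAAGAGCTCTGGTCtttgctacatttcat
CHD2: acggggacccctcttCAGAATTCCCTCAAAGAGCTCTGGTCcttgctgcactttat

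The study measured CHD3 and CHD4 by RT-qPCR with primers that lie in coding exons. The CHD3 pair sits in exons 17 and 18 (chr17:7803694-7803715 and chr17:7803957-7803978) and the CHD4 pair in exons 34 and 36 (chr12:6688046-6688065 and chr12:6687272-6687291). None of these 4 primers matched the coding sequence of another CHD gene. They are shown, sense primer first, as the positions at which the paralogues were told apart in the study.
CHD3 sense: ccatctcctgaacttcctcacc
CHD3 antisense: cttgagtctccgcagcatgtgt
CHD4 sense: aggtggaggaaaagtcagca
CHD4 antisense: ccgctcttcattctgccaaa

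Library totals were 44966728 to 102005319 counts in the siCHD4 table and 38573214 to 57219281 in the siCHD3 table. siCtrl replicate 3 stood apart in its table. It had the lowest total, a TMM scaling factor of 0.816 against 0.998 to 1.07 in the others, and 6.57% of its counts in ribosomal protein genes against 4.18% to 5.09%. Results that rest on it are given with and without it. The melanocyte lineage markers (MITF, SOX10, PMEL, TYR, TYRP1, DCT, MLANA and S100B) were present in all 12 libraries. In CPM (counts scaled by the TMM-adjusted library total to a common size) they summed to 15122 to 19929 in siCtrl and 20275 to 21477 in siCHD4 libraries, with no overlap, and to 13808 to 14465 in siCtrl and 13049 to 17278 in siCHD3 libraries. With edgeR 0 of 8 passed in either table, but TYRP1, DCT and MLANA were higher after siCHD4 at an unadjusted p under 0.05, 1 passed with DESeq2, and 3 passed without siCtrl replicate 3. After siCHD4 the log2 fold changes of the 8 ran from -0.83 to 1.09, with a median of 0.15. With an offset for transcript GC content, added after seeing the data, 3 passed as higher and 1 as lower. The part of these markers in the family's changes was not tested. The study describes its replicates as biological, and the labels do not say how the 3 libraries of a group were separated. In bulk RNA, fewer cells with a transcript and less transcript per cell cannot be told apart.

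CHD4 was the most abundant family member in siCtrl cells and CHD5 the least. Per kb of MANE Select transcript, a length chosen after seeing the data because the deposited gene lengths are far shorter than any full transcript (660 bases for CHD4 against 6491), CHD4 reached 84.6 ± 8.29 CPM (SD, n = 3) in siCtrl replicates 1 to 3. CHD8 followed at 23.5 ± 3.40, CHD3 at 15.5 ± 2.48 and CHD7 at 11.7 ± 2.93, and the ranges of CHD3 and CHD7 overlapped. CHD1 (7.36 ± 3.12), CHD2 (6.74 ± 1.5), CHD6 (6.37 ± 1.63) and CHD9 (3.77 ± 1.61) followed on the same scale, each overlapping its neighbour in the order. CHD5 was at 0.0236 ± 0.00522. In siCtrl replicates 4 to 6 the order below CHD4 differed, with CHD1 second at 17.3 ± 3.38 and CHD8 seventh at 5.66 ± 0.265 CPM per kb. CHD5 was the lowest in all 12 libraries with either length, and CHD4 the highest in the 9 libraries without siCHD4.

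**Figure D1:**
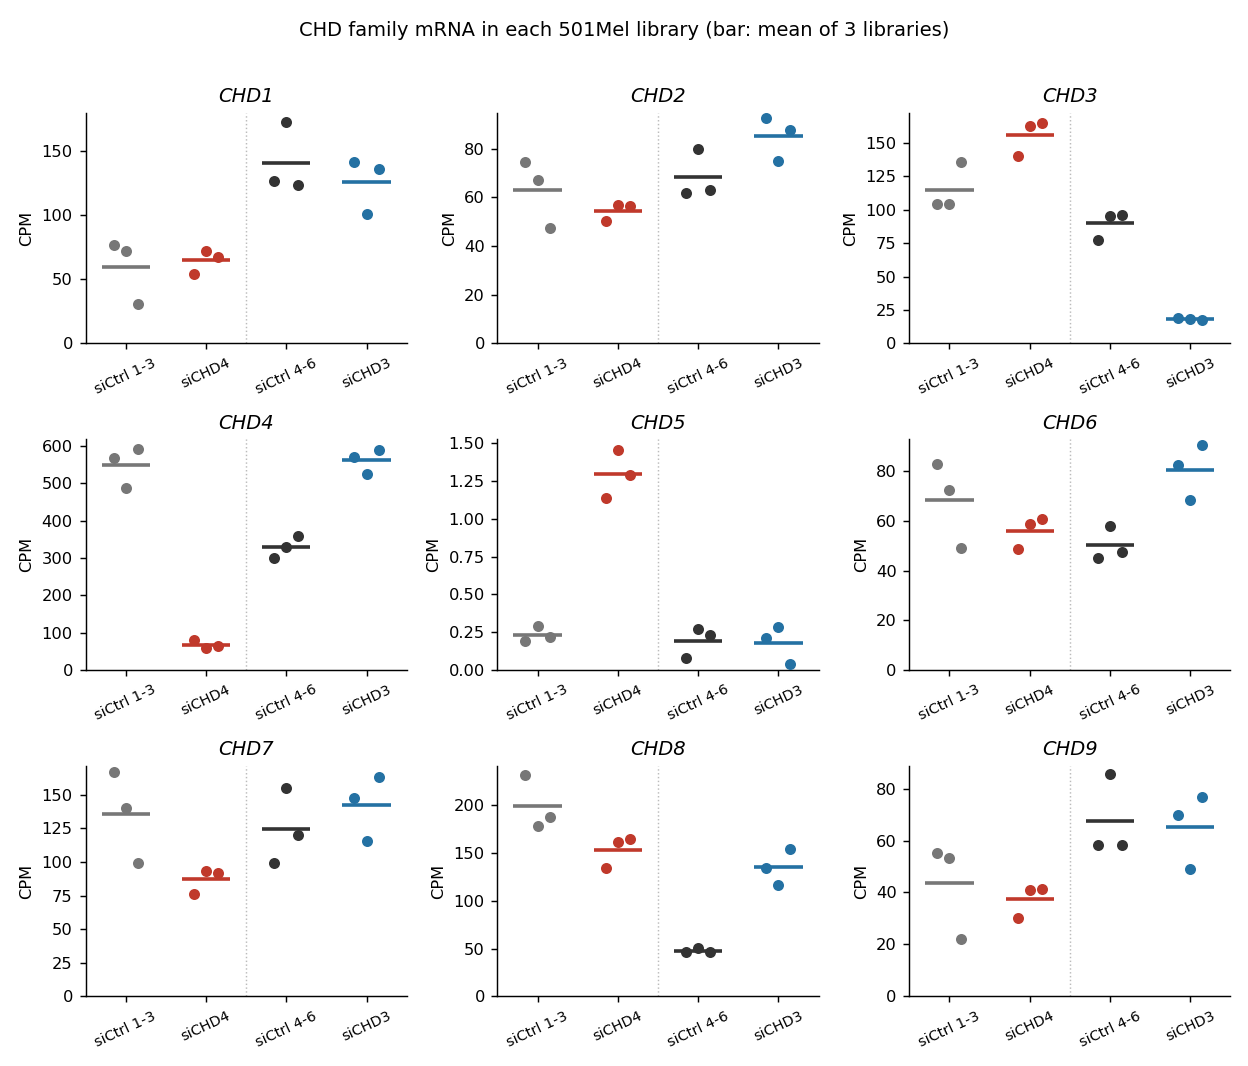
CPM of each CHD gene in each of the 12 libraries, each panel with its own linear axis from 0. Points are libraries, bars the mean of 3, and the dotted line parts the siCHD4 table (left) from the siCHD3 table (right). CHD8 lies at 46.6 to 50.5 CPM in siCtrl replicates 4 to 6 and above 100 CPM in all other libraries.

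Silencing of CHD4 lowered CHD4 and raised CHD5, and no other family member passed the test. CHD4 was at 568, 488 and 591 CPM in the siCtrl libraries and at 79.6, 58.6 and 63.3 CPM in the siCHD4 libraries. The groups lay far apart, and the siCHD4 mean was 12.2% of the siCtrl mean. The log2 fold change was -3.03 ± 0.22 (SE, n = 3 per group, adjusted p = 0.000724, edgeR quasi-likelihood test). CHD4 lies on chromosome 12 (chr12:6679248-6723690, minus strand). In GENCODE v44lift37 it shares 46.9% of its exon bases with an overlapping readthrough gene on the same strand, ENSG00000285238. The sources do not state whether the annotation behind the counts held that gene, or how shared exons were assigned. The CHD4 count may depend on both.

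CHD5, a NuRD ATPase known mainly from neurons and testis (chr1:6161847-6240381, minus strand), had 18, 22 and 8 reads in siCtrl and 99, 125 and 139 reads in siCHD4 libraries. In CPM these were 0.19, 0.29 and 0.218 against 1.14, 1.45 and 1.29, with no overlap. The summed counts of 48 and 363 gave a ratio of 5.59 (95% exact interval 4.13 to 7.73, counting error only). The log2 fold change was 2.47 ± 0.29 (adjusted p = 0.00352, edgeR), and CHD5 passed the test in all 15 alternatives tried. Its level after siCHD4 nevertheless stayed far under that of CHD4, at 0.417% of the NuRD ATPase transcripts per MANE Select length. Endothelial markers also moved with siCHD4. Of the 4 on the list, PECAM1 was not analysed here and the other 3 (CDH5, VWF and KDR) rose, and the summed list went from 0.218 to 0.549 CPM in siCtrl to 2.30 to 3.39 CPM in siCHD4 libraries. Only 1 of the 3 passed without siCtrl replicate 2, without any one of the siCHD4 replicates, or with the replicate block. In the siCHD3 table the same list summed to 0.289 to 0.485 CPM in siCtrl and 0.703 to 0.858 CPM in siCHD3 libraries. The 3 genes were under the filter on low counts there. The part of these markers in the CHD5 result was not tested.

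CHD3 (chr17:7788114-7816078, plus strand) was at 104, 104 and 136 CPM in siCtrl and 140, 162 and 165 CPM in siCHD4 libraries. The groups did not overlap, but siCtrl replicate 3 came close to siCHD4 replicate 1. The log2 fold change of 0.44 ± 0.20 did not pass the test (adjusted p = 0.259, edgeR). Without siCtrl replicate 3 it was 0.60 and passed (adjusted p = 0.0034, edgeR), and it also passed against all 6 siCtrl libraries, at 0.69 (adjusted p = 0.0362, edgeR). Over the 15 alternatives the log2 fold change of CHD3 stayed between 0.38 and 0.69, with adjusted p between 0.0034 and 0.62.

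In the CHD1 and CHD2 subfamily, CHD1, which spaces nucleosomes in transcribed genes, was at 77.2, 72.0 and 30.7 CPM in siCtrl and 54.4, 72.1 and 67.9 CPM in siCHD4 libraries. siCtrl replicate 3 was the low one, and the groups overlapped. The log2 fold change was 0.11 ± 0.35 and turned to -0.19 without that library, in neither case past the test. CHD2, its close relative, was at 74.4, 67.3 and 47.3 CPM against 50.2, 56.6 and 56.5 CPM, again with siCtrl replicate 3 lowest. Its log2 fold change was -0.21 ± 0.23 (adjusted p = 0.651, edgeR).

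In the CHD6 to CHD9 subfamily all 4 point estimates were below 0 and none passed. CHD7, a regulator of neural crest development, was at 167, 140 and 99.4 CPM in siCtrl and 76.4, 93.1 and 92.0 CPM in siCHD4 libraries, with no overlap. Its log2 fold change was -0.64 ± 0.24 (adjusted p = 0.177, edgeR). CHD8, which represses beta-catenin targets, was at 232, 178 and 187 CPM against 135, 161 and 165 CPM, also with no overlap, at a log2 fold change of -0.38 ± 0.20 (adjusted p = 0.329, edgeR). CHD6 was at 83.2, 72.7 and 49.0 CPM against 48.6, 58.7 and 60.7 CPM. CHD9 was at 55.3, 53.2 and 22.0 CPM against 30.1, 40.9 and 41.4 CPM. In both genes siCtrl replicate 3 lay well below the other siCtrl libraries and the groups overlapped, at log2 fold changes of -0.29 ± 0.25 for CHD6 and -0.22 ± 0.36 for CHD9.

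Counted over the family, 1 of 9 members was higher and 1 of 9 lower at an adjusted p under 0.05, where 5.07% and 2.06% of the 17018 genes tested were. The lower one was CHD4, the silenced gene itself, so that count says nothing about its paralogues. Both also passed an absolute log2 fold change of 1, as did 4.8% of all genes upward and 1.65% downward. The libraries of the groups did not overlap for 2 members upward (CHD3 and CHD5) and 3 downward (CHD4, CHD7 and CHD8), against 16.8% and 14.5% of all genes. The median log2 fold change of all genes tested was -0.06. Without siCtrl replicate 3, 8 of 9 members passed an adjusted p of 0.05, with CHD2 (-0.36), CHD6 (-0.46), CHD7 (-0.80), CHD8 (-0.40) and CHD9 (-0.52) lower and CHD3 higher beside CHD5. Calls also rose outside the family in that fit, with 8 of 22 other Snf2-type ATPases lower in place of 0. Its share over all genes is not given here. In simulated counts all genes shared a single dispersion (spread between libraries). The fit of the siCHD4 table recovered 20% of those changed 2-fold and 98% of those changed 4-fold. These rates are not those of single members, and a member that did not pass is not shown to be unchanged.

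**Figure D2:**
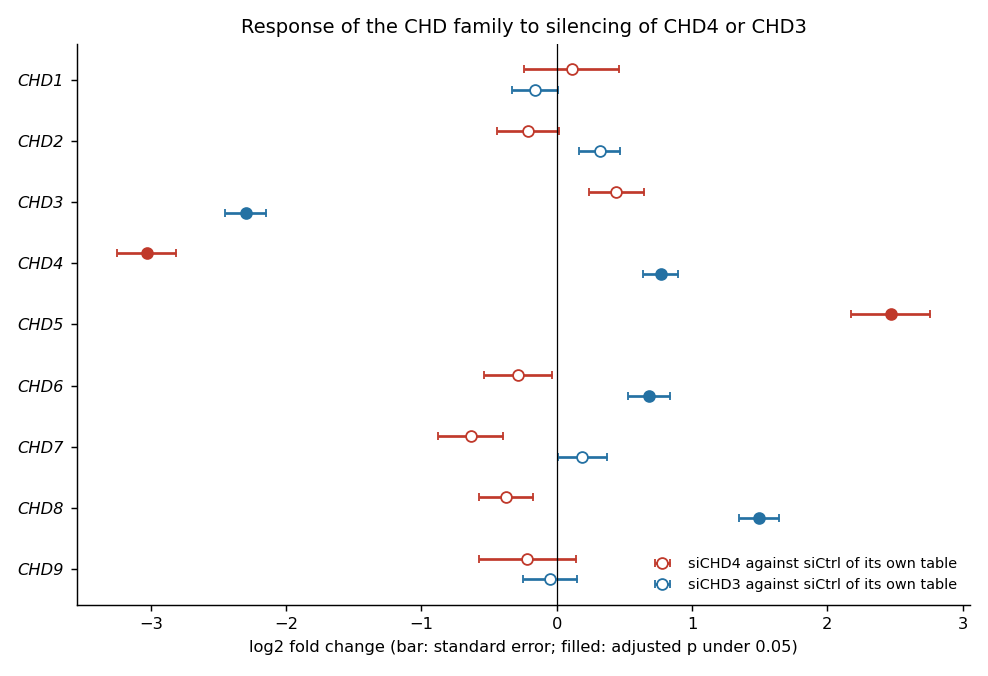
log2 fold change of each CHD gene after siCHD4 (red) and after siCHD3 (blue) against the siCtrl libraries of the same table, with the standard error. Filled points have an adjusted p under 0.05. CHD5 has no siCHD3 point because it fell under the filter on low counts there.

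Silencing of CHD3 lowered CHD3, while CHD4, CHD6 and CHD8 were higher than in the siCtrl libraries of the same table. CHD3 was at 77.4, 95.5 and 96.4 CPM in siCtrl and 18.9, 18.1 and 17.7 CPM in siCHD3 libraries. The siCHD3 mean was 20.3% of the siCtrl mean, at a log2 fold change of -2.30 ± 0.15 (adjusted p = 2.7e-06, edgeR). CHD3 passed in all 14 alternatives.

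CHD4 was at 300, 330 and 359 CPM in siCtrl and 572, 525 and 589 CPM in siCHD3 libraries, with no overlap. The log2 fold change was 0.77 ± 0.13 (adjusted p = 0.00132, edgeR), and leaving out each library in turn gave 0.69 to 0.84. CHD5 had 3, 14 and 9 reads in siCtrl and 9, 12 and 2 reads in siCHD3 libraries and was under the filter on low counts. The summed counts of 26 and 23 gave a ratio of 0.817 (95% exact interval 0.445 to 1.49, counting error only), so a rise of the size seen after siCHD4 lies outside this interval.

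CHD8 had the largest rise of the 8 members tested after siCHD3, from 46.6, 50.5 and 46.6 CPM in siCtrl to 134, 116 and 154 CPM in siCHD3 libraries. The log2 fold change was 1.49 ± 0.15 (adjusted p = 4.0e-05, edgeR). CHD6 was at 44.9, 58.1 and 47.5 CPM in siCtrl and 82.7, 68.5 and 90.6 CPM in siCHD3 libraries, at a log2 fold change of 0.68 ± 0.16 (adjusted p = 0.00856, edgeR). The CHD6 call was lost without siCHD3 replicate 3 (adjusted p = 0.0617, edgeR) and in the fit over 12 libraries (adjusted p = 0.0602, edgeR). CHD7 was at 99.4, 155 and 120 CPM against 147, 116 and 163 CPM, with overlapping groups and a log2 fold change of 0.19 ± 0.18. CHD9 was at 58.2, 85.6 and 58.5 CPM against 69.8, 48.9 and 76.7 CPM, at -0.05 ± 0.20.

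CHD1 was at 127, 173 and 124 CPM in siCtrl and 141, 101 and 137 CPM in siCHD3 libraries, with a log2 fold change of -0.16 ± 0.17 that turned positive without siCtrl replicate 5 or siCHD3 replicate 2. CHD2 was at 61.6, 79.8 and 63.2 CPM against 92.3, 74.9 and 87.7 CPM, at 0.32 ± 0.15 (adjusted p = 0.162, edgeR). The noncoding CHASERR, which lies upstream of CHD2 and restrains it in cis, was at 22.8, 17.7 and 17.5 CPM in siCtrl and 26.4, 25.7 and 22.9 CPM in siCHD3 libraries. The CHASERR row of the siCHD4 table is empty, so it was not analysed there.

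Over the 8 members tested after siCHD3, 3 were higher and 1 lower at an adjusted p under 0.05, against 11.5% and 8.81% of the 16115 genes tested. The lower one was CHD3, the silenced gene itself. CHD8 and CHD3 also passed an absolute log2 fold change of 1, as did 3.89% of all genes upward and 4.33% downward. The groups did not overlap for the same 3 members upward and for CHD3 downward, against 19.7% and 17.4% of all genes. Of the fibroblast markers, 1 of 4 (LUM) rose after siCHD3 (2 of 4 without siCtrl replicate 4 or siCHD3 replicate 3), and the list summed to 12.7 to 14.1 CPM in siCtrl and 18.8 to 31.3 CPM in siCHD3 libraries. The log2 fold changes of the 4 fibroblast markers ran from -0.53 to 1.17, so they did not all move one way. The part of this list in the paralogue rises was not tested. The simulated recovery in this table was 80% at 2-fold and 28% at 1.5-fold.

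The rises after siCHD3 passed against the siCtrl libraries of the same table but not against all 6. CPM were scaled within each table, so levels are set side by side here with no test. CHD8 averaged 199 ± 28.8 CPM (SD, n = 3) in siCtrl replicates 1 to 3 and 47.9 ± 2.25 CPM in siCtrl replicates 4 to 6, a ratio of 4.15. CHD4 averaged 549 ± 53.8 and 330 ± 29.3 CPM, a ratio of 1.67. The siCHD3 libraries, at a mean of 135 CPM for CHD8 and 562 CPM for CHD4, thus lay below the first siCtrl set for CHD8 and beside it for CHD4. Against all 6 siCtrl libraries in a fit over the 12 libraries, CHD8 had a log2 fold change of 0.01 (adjusted p = 0.993, edgeR), CHD4 of 0.26 (adjusted p = 0.588, edgeR) and CHD6 of 0.36 (adjusted p = 0.439, edgeR), while CHD3 still fell. That fit has no term for the table, so a difference between the tables enters it. It cannot show that the rises within the siCHD3 table are absent. The control sets also did not overlap for CHD1, which was 2.35-fold higher in siCtrl replicates 4 to 6, or for CHD3 and CHD9. The table a library stands in and the occasion on which it was made cannot be told apart. With an offset for transcript GC content, added after seeing the data, CHD8, CHD4 and CHD6 kept log2 fold changes of 1.48, 0.77 and 0.65 within the siCHD3 table.

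**Figure D3:**
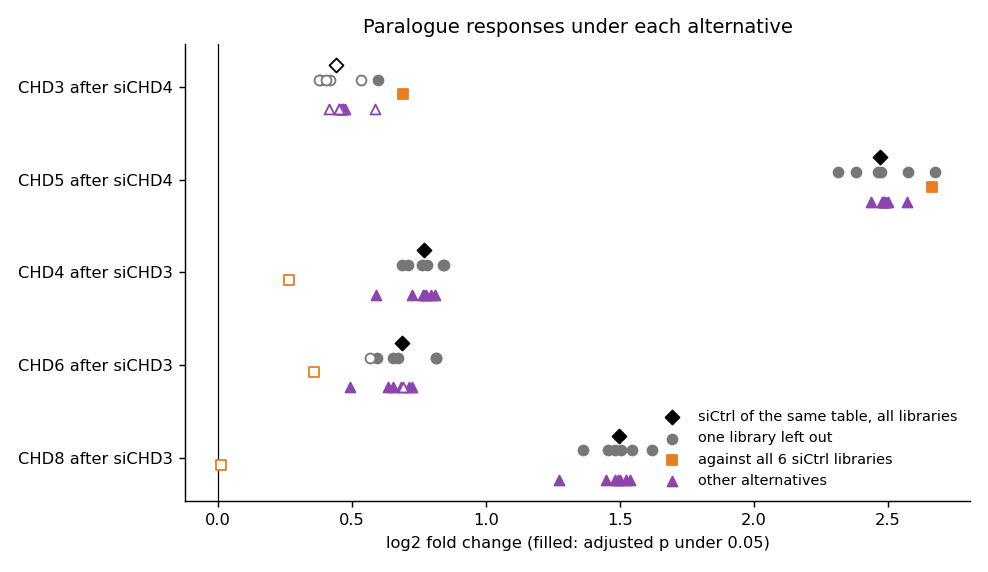
log2 fold changes of 5 paralogue responses under each alternative. Filled symbols have an adjusted p under 0.05. CHD8, CHD4 and CHD6 after siCHD3 do not pass against all 6 siCtrl libraries (orange squares, no term for the table), at 0.01, 0.26 and 0.36. CHD5 after siCHD4 passes in every alternative shown.

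Adding CHD3, CHD4 and CHD5 per length gives the pool of NuRD ATPase transcripts. By the deposited gene lengths, CHD4 made up 86.5% ± 1.32 of the pool (SD, n = 3) in siCtrl replicates 1 to 3 and CHD3 13.5% ± 1.32. After siCHD4, CHD4 made up 36.5% ± 5.81, CHD3 63.4% ± 5.79 and CHD5 0.106% ± 0.0142. CHD3 was thus the main transcript of the pool in each of the 3 siCHD4 libraries, at 56.8% to 67.4%. The pool itself was at 29.0% of its siCtrl mean, and the gain in CHD3 and CHD5 came to 6.41% of the loss in CHD4. By MANE Select length these values were 31.5% and 7.62%, and by exon length 36.5% and 10.1%. After siCHD3, CHD3 went from 16.9% ± 0.823 to 2.38% ± 0.159 of the pool. The pool was at 145% of its siCtrl mean there, and this value rests on the CHD4 levels of siCtrl replicates 4 to 6 given above.

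**Figure D4:**
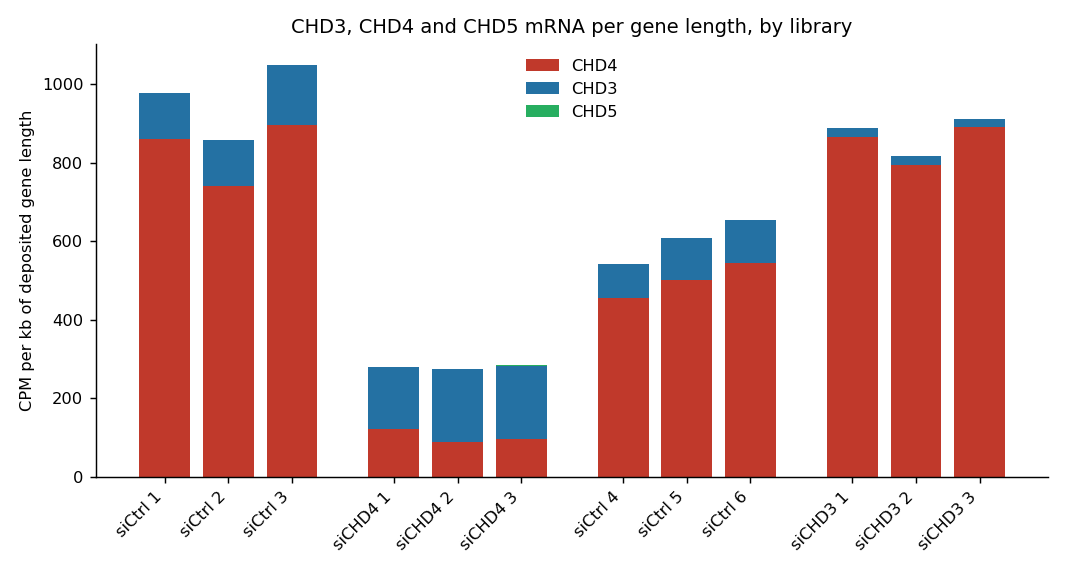
CHD4 (red), CHD3 (blue) and CHD5 (green) in CPM per kb of deposited gene length, stacked for each library. After siCHD4 the stack falls to 274 to 284 CPM per kb and CHD3 is its larger part. CHD5 is too low to be seen at this scale.

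The responses to both silencings were compared directly as an interaction over the 12 libraries, in which a constant difference between the tables cancels. CHD3 differed by 2.76 ± 0.23 on the log2 scale (adjusted p = 2.7e-05, edgeR) and CHD4 by -3.79 ± 0.22 (adjusted p = 4.6e-06, edgeR), as each was the silenced gene in one arm. Of the members silenced in neither, CHD8 differed by -1.86 ± 0.24 (adjusted p = 0.00043, edgeR) and CHD5 by 2.69 ± 0.75 (adjusted p = 0.0312, edgeR). For CHD8 the silenced libraries averaged 153 CPM after siCHD4 and 135 CPM after siCHD3. The siCtrl libraries of the same tables averaged 199 and 47.9 CPM. The part of the control sets in the CHD8 difference was not tested. Against all 6 siCtrl libraries the CHD8 log2 fold changes were 0.36 and 0.01, neither past the test. The CHD5 difference rests on 23 and 26 reads in the siCHD3 table and lost the call when any of 6 libraries was left out, with adjusted p up to 0.113. The CHD6 difference, -0.96 ± 0.31, fell just short (adjusted p = 0.0549, edgeR), and CHD1, CHD2, CHD7 and CHD9 did not pass. In all, 2 of 9 members were above and 2 below at an adjusted p under 0.05, beside 6.84% and 7.16% of the 17357 genes tested. These counts include the silenced genes, CHD3 above and CHD4 below. All 4 also passed an absolute log2 difference of 1, as did 6.1% of all genes upward and 5.57% downward.

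The other subunits of NuRD and of ChAHP, the complex of CHD4 with ADNP and HP1 proteins, were measured beside the ATPases. After siCHD4, 0 of 17 tested passed with edgeR (median log2 fold change 0.09), while 1 was lower at an unadjusted p under 0.05 and 1 was lower with DESeq2. Both were MTA1, chosen after its values were seen, a scaffold subunit at 53.7 ± 21.6 CPM (SD, n = 3) in siCtrl and 24.6 ± 0.526 in siCHD4 cells (adjusted p = 0.075 with edgeR). With edgeR 1 of the list was also lower without siCtrl replicate 1, without siCtrl replicate 3 or with no filter. The same count held with the GC offset and in the fit over 12 libraries. After siCHD3, 5 of 17 rose, against 11.5% of all genes, with a list median of 0.28 beside -0.02 over all genes. They were GATAD2A (0.83), CDK2AP1 (0.79), MTA1 (0.73), MTA3 (0.55) and CBX5 (0.51 on the log2 scale), subunits of NuRD except for CBX5, an HP1 protein. The count was 2 without siCHD3 replicate 3 and in the fit over 12 libraries, 3 without siCtrl replicate 5, siCtrl replicate 6 or siCHD3 replicate 1 and with the length offset, and 8 with the GC offset. As each of the 6 libraries was left out, GATAD2A and CDK2AP1 passed in 6 of 6 fits, MTA1 in 3 of 6, and MTA3 and CBX5 in 2 of 6. Against all 6 siCtrl libraries 0 of 17 passed, and MTA1 turned to -0.39.

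Of 22 other Snf2-type ATPases, 0 passed after siCHD4 with edgeR or DESeq2 (2 lower at an unadjusted p under 0.05, SMARCA4 and EP400), but 8 were lower without siCtrl replicate 3. After siCHD3, 7 of 22 rose, against 11.5% of all genes. By adjusted p the first 4 were SMARCA4 (1.51), the BRG1 motor of SWI/SNF, SMARCA1 (1.03), an ISWI motor, TTF2 (0.55) and RAD54L2 (0.62 on the log2 scale). The count was 2 without siCHD3 replicate 1 or replicate 3 and in the fit over 12 libraries, and 4 without siCtrl replicate 4 or replicate 5. SMARCA4 and SMARCA1 passed in 6 of 6 fits with a library left out, and TTF2 and RAD54L2 in 3 of 6. Against all 6 siCtrl libraries 0 of 22 passed, with SMARCA4 at -0.20. Among partners of the other CHD proteins, 0 of 11 passed after siCHD4 with edgeR or DESeq2, with 2 lower at an unadjusted p under 0.05 (WDR5 and PAF1), and 4 of 11 were lower without siCtrl replicate 3. After siCHD3, 2 of 12 rose, a share near the 11.5% of all genes. They were RTF1 (0.58), a PAF complex subunit, and PPARA (0.85), a nuclear receptor bound by CHD9. The RTF1 call was lost without siCHD3 replicate 1 or replicate 3 (adjusted p up to 0.0666, edgeR), and 0 of 11 passed in the fit over 12 libraries or against all 6 siCtrl libraries.

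**Figure D5:**
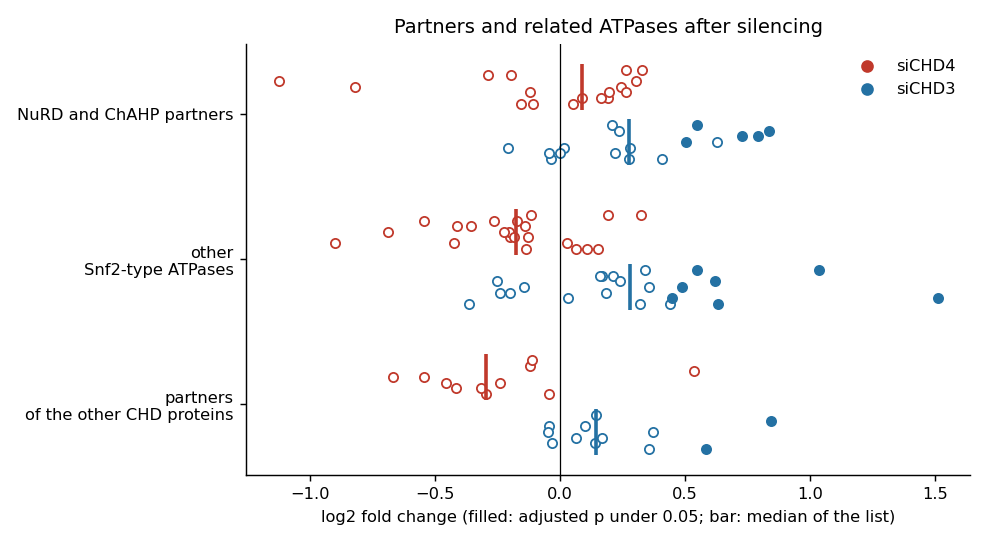
log2 fold change of each tested gene in the lists of NuRD and ChAHP partners, other Snf2-type ATPases and partners of the other CHD proteins, after siCHD4 (red) and siCHD3 (blue). Filled points have an adjusted p under 0.05 and bars are list medians. 0 genes are filled after siCHD4 and 14 after siCHD3, all to the right of 0. Of all genes tested after siCHD3, 11.5% were higher and 8.81% lower at that threshold.

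No coding gene tested beside CHD5 passed as higher after siCHD4 when all libraries of the table were used. KCNAB2, 594 bases from CHD5, had a log2 fold change of 0.58 ± 0.31 (adjusted p = 0.331, edgeR), though 1.02 without siCtrl replicate 3, where it passed (adjusted p = 0.000235, edgeR). RPL22, on the other side, was at -0.33 ± 0.28 and NPHP4 at -0.22 ± 0.32, neither past the test, and RNF207 fell by 1.49 ± 0.31 on the log2 scale (adjusted p = 0.0287, edgeR). That call was lost without siCtrl replicate 2 or any one of the siCHD4 replicates (adjusted p up to 0.154, edgeR) and with the replicate block (adjusted p = 0.0602, edgeR). RNF207 also fell after siCHD3, by 1.00 ± 0.20 (adjusted p = 0.00442, edgeR). Beside CHD4, NOP2 fell after siCHD3 by 0.83 ± 0.14 (adjusted p = 0.0012, edgeR) while CHD4 was higher, and IFFO1, ING4 and ZNF384 did not pass. Beside CHD3, CYB5D1 fell after siCHD3 by 0.63 ± 0.18 (adjusted p = 0.0257, edgeR), a call lost without siCtrl replicate 4 or 5 or siCHD3 replicate 1 or 2 (adjusted p up to 0.102, edgeR), and LSMD1, AC025335.1 and KCNAB3 did not pass. After siCHD4, none of the 8 neighbours of CHD3 and CHD4 passed with edgeR or DESeq2, and 4 of them were lower at an unadjusted p under 0.05. Without siCtrl replicate 3, CYB5D1 (-0.87, adjusted p = 0.000295), ZNF384 (-0.40, adjusted p = 0.0241) and ING4 (-0.41, adjusted p = 0.0478) passed with edgeR.

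The coding genes that followed each NuRD ATPase most closely over the 12 libraries, after the siCtrl mean of each table was taken away, were found among 12418 genes by Pearson's r. For CHD3 they were CTGF (r = 0.986), a matricellular protein, ADM (0.985), a vasodilator peptide, and SLC12A8 (0.978). All 3 fell after siCHD3, at log2 fold changes of -2.1, -1.61 and -1.64, and had 0.41, 0.10 and 0.75 after siCHD4, none past the test. For CHD4 they were TRIM45 (0.988), SEMA4F (0.987) and OTUB2 (0.986), which fell after siCHD4, at log2 fold changes of -1.20, -1.83 and -1.92. The TRIM45 call was lost without siCtrl replicate 2 or any one of the siCHD4 replicates (adjusted p up to 0.105, edgeR), while the others passed in 6 of 6 fits with a library left out. SEMA4F, a semaphorin, also rose after siCHD3, at 0.75. For CHD5 they included CADM4 (0.963) and RAB15 (0.960), with log2 fold changes of 1.16 and 0.68 after siCHD4, of which CADM4 passed, though not without siCtrl replicate 2 or any one of the siCHD4 replicates (adjusted p up to 0.107, edgeR). These genes were picked for their likeness, so r is a description, and the 12 points share the 4 groups.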

How the data were processed

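For each Ensembl gene the authors deposited raw counts, on which every test here rests, a normalized signal, found to equal the counts over 1 factor for each library, and that signal divided by a gene length. The log2 fold changes and p-values in the tables are the authors' own comparisons and were not used. cDNA was linearly amplified from 6 ng of RNA, with 8 PCR cycles. According to the submitters' processing notes the build was hg19, and the tools were TopHat2 2.0.10, Bowtie2 2.1.0 and 2.2.8, HTSeq, CASAVA 1.8.2, DESeq2 and cutadapt 1.10. Their roles, the annotation release, the read length and the strand setting are not stated in the sources used.

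Each silencing was tested against the siCtrl libraries of its own table with the edgeR 4.0.16 quasi-likelihood test (filterByExpr, TMM) in R 4.3.3, Benjamini-Hochberg adjusted over all genes tested, at an adjusted p of 0.05. Their difference was an interaction over 12 libraries. Alternatives were DESeq2 1.42.0, other scalings, no filter, length and GC offsets, each library left out, a replicate block and all 6 siCtrl libraries as controls. CPM used TMM-scaled totals. Intervals on counts are exact. The fits were tested on simulated data with 50 genes changed at each fold and a single dispersion for all genes of a fit.

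Coordinates, exon overlaps and MANE Select transcripts came from GENCODE v44lift37 on GRCh37, which holds 96.5% and 96.2% of the genes with counts in the siCHD4 and siCHD3 tables. Primers came from the study's supplement. A planned protein comparison was not made, and shared coding runs stand in its place. Named genes were all members, up to 4 called genes of each list by adjusted p (all where 5 or fewer), the 2 nearest tested coding genes on either side of CHD3, CHD4 and CHD5, and the 3 most alike genes. A few genes the rule names are not reported here. Members and lists were chosen with earlier results of these data known.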

Additional observations from a re-analysis of the deposited data

Results flagged for a closer look

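Of the 9 members, 4 responded differently to the silencings by the interaction test over 12 libraries. CHD3 differed by 2.76 on the log2 scale (2.7553 before rounding) and CHD4 by -3.79 (-3.7904), each being the silenced gene in one arm. CHD8 differed by -1.86 (-1.8584), with all siCHD4 libraries below and all siCHD3 libraries above the siCtrl libraries of their table. The siCHD4 and siCHD3 libraries averaged 153 and 135 CPM, while siCtrl replicates 1 to 3 were 4.15-fold above siCtrl replicates 4 to 6. Against all 6 siCtrl libraries CHD8 had log2 fold changes of 0.36 after siCHD4 and 0.01 after siCHD3. The part of the control sets in the CHD8 difference was not tested. CHD5 differed by 2.69 (2.6888), higher in 3 of 3 siCHD4 libraries and at 2 to 12 reads in the siCHD3 libraries. That of CHD5 lost the call when any of 6 libraries was left out (adjusted p up to 0.113, edgeR).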

How the results depend on the processing

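The falls of CHD4 and CHD3 on silencing, the rise of CHD5 after siCHD4 and the differences of CHD3, CHD4 and CHD8 between the silencings kept direction and call under all alternatives run. None of those run for the differences changed the control set. Against all 6 siCtrl libraries, in a fit with no term for the table, CHD8 after siCHD3 was at 0.01 (adjusted p = 0.993, edgeR). Of the 9 members, the number at an adjusted p under 0.05 after siCHD4 was 2, 5 with the GC offset (added after seeing the data) and 2 to 8 as each library was left out, 8 without siCtrl replicate 3. After siCHD3 it was 4, 3 to 4 with a library left out, and 1 against all 6 siCtrl libraries, where 1 member was also past both thresholds in place of 2. For the difference of the responses it was 4, 7 with the GC offset and 3 to 7 with a library left out, 7 without siCtrl replicate 3. Shares over all genes are not given for these alternatives. Why the values moved with siCtrl replicate 3 or with the control set was not tested. Without a library some arms hold 2 samples.

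By exon length of the reference annotation, CHD4 made up 80.6% of the NuRD ATPase pool in siCtrl replicates 1 to 3 and 27.1% after siCHD4, and CHD3 23.9% in siCtrl replicates 4 to 6 and 3.61% after siCHD3. By MANE Select length the values that moved were 84.5%, 19.3% and 2.78%. All pool orders were the same.

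Results that changed sign were past the test in neither setting, except where named. Against all 6 siCtrl libraries, the log2 fold change after siCHD4 became -0.51 for CHD1, 0.36 for CHD8, 0.17 for NPHP4, -0.62 for CTGF, -0.85 for ADM and -0.47 for SLC12A8. After siCHD3 it became 0.29 for CHD1, 0.17 for CHD9, -0.38 for IFFO1, -0.28 for OTUB2, -0.0713 for CADM4, -0.0305 for NPHP4, -0.13 for TRIM45 and -0.87 for LSMD1, and for 3 genes called in the siCHD3 table it became -0.20 (SMARCA4), -0.28 (SEMA4F) and -0.39 (MTA1). The length offset gave -0.0197 for CHD7 and -0.0366 for IFFO1 after siCHD3 and 0.0716 for the CHD9 difference, and library totals alone gave -0.0371 for IFFO1. With a library left out, values after siCHD4 ran from -0.19 to 0.34 for CHD1, -0.75 to 0.0057 for IFFO1, -0.51 to 0.0118 for RPL22 and -0.47 to 0.15 for NPHP4. After siCHD3 they ran from -0.25 to 0.022 for CHD1, -0.21 to 0.17 for CHD9, -0.0964 to 0.0671 for IFFO1, -0.0223 to 0.26 for CADM4, -0.0195 to 0.17 for RPL22 and -0.0183 to 0.25 for AC025335.1, and the CHD9 difference from -0.44 to 0.0273.

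Same-numbered siCtrl and siCHD4 libraries did not deviate together (r of 0.033, 0.02 and 0.023), so the numbers were not taken as pairs. With a replicate block CHD4 was at -3.04, CHD5 at 2.48 and CHD3 at 0.45 on the log2 scale, the number of members called stayed at 2, and over all genes 500 were higher and 116 lower in place of 863 and 350. No paired analysis was possible because siCHD3 replicates 1 to 3 and siCtrl replicates 4 to 6 share no number. In simulated counts, 1.5-fold changes were recovered in 2% of genes in the siCHD4 fit and 28% in the siCHD3 fit, so paralogue changes of that size were not reliably detectable.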
